A study of Drosophila melanogaster with 12 samples.

Results

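The exon junction complex, the nuclear cap-binding complex and the nonsense-mediated decay factors are proteins that travel with an mRNA or survey it. Their genes were followed here on arrays of RNA from the nucleus and from the cytoplasm of D. mel-2, a cultured Drosophila melanogaster cell line. The genes listed were tsu, mago and btz for the exon junction complex, Cbp20 and Cbp80 for the cap-binding complex, and Upf1, Upf2, Upf3, Smg5 and Smg6 for nonsense-mediated decay. A probe set was taken where the platform annotation gave 1 of these symbols alone. This found 8 of the 14010 probe sets on the array, 1 each for 8 of the 10 genes, and mago and Smg5 were not analysed here. The filter on dim signal kept all 8.

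Splicing leaves an exon junction complex near each junction, and the cap-binding complex sits on the cap of a new mRNA until the translation factor eIF4E replaces it. Nonsense-mediated decay destroys mRNAs on which a ribosome stops too early. In mammals, exon junction complexes downstream of the stop help to mark such mRNAs, while in Drosophila cells the decay has been described to work without them. In the fly, tsu, mago and btz are best known for placing oskar mRNA at the posterior pole of the oocyte. The arrays measure the mRNAs of these genes and say nothing of where their proteins are.

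The 4 groups were cytoplasmic and nuclear RNA of cells given a non-specific RNA interference (the control), and cytoplasmic and nuclear RNA of cells given an interference aimed at U2AF50, the larger of the U2AF splicing factor's subunits. Each group had 3 arrays, 12 in all, each with 1 colour and 1 RNA sample. The labels give no age, strain or time of treatment and do not say whether replicates were separate cultures, so the spread behind each p-value is that of these samples and may be technical only. They name a hypotonic lysis for all U2AF50 samples and for part of the control samples. Values are intensities on a linear scale, and changes are differences of quantile-normalised log2(intensity + 94.7), which understates the change of dim genes. A gene was called where limma's test, Benjamini-Hochberg adjusted over the 8379 probe sets tested, gave an adjusted p under 0.05. Both fractions were scaled to a common level, so a lower nuclear value means a smaller share of the nuclear than of the cytoplasmic signal, not fewer molecules per cell. In such bulk samples, fewer cells carrying an mRNA and less of it per cell cannot be told apart.

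The targeted mRNA checked the labels first. U2af50 stood at intensities of 2474.4, 5606.2 and 4751 in the control cytoplasm and 1029.5, 1327 and 1142.7 in the U2AF50 cytoplasm, a fall to 0.298 of the control (log2 change -1.75, SE 0.26, limma adjusted p = 0.0012). In the nucleus it was 1701.2, 1709.7 and 1589 in the control and 2718.4, 1737.7 and 1677.5 in the samples labelled U2AF50, and the groups overlapped (log2 change 0.21, limma adjusted p = 0.738). Of 10 markers of blood-like cells, the type such lines resemble, 9 were bright enough to test, as were aub of 3 measured germ line markers (the others, bam and vas, were not), 2 of 3 fat body, 0 of 3 muscle and 0 of 3 neuron markers. Blood-like markers, most of them secreted or membrane proteins, were called higher in the nuclear fraction for 8 of 9 under both treatments. The mRNAs translated at the endoplasmic reticulum were called higher there for 6 of 7 in the control and 7 of 7 under U2AF50 interference. Of all probe sets tested, 16.9% were called higher in the control and 17.9% under U2AF50 interference. The remaining blood-like marker, srp, was at a log2 change of 0.01 in the control. Under U2AF50 interference srp was lower in the nucleus (-0.76, SE 0.26, limma adjusted p = 0.0245). The summed intensity of the measured blood-like markers was 6491.9 to 7859.4 in the control cytoplasm and 72142.9 to 79829.1 in the control nucleus. That of the endoplasmic reticulum mRNAs was 26726.7 to 33084.8 and 355875 to 412130. The 3 nuclear noncoding RNAs listed to check the fractions had 0 probe sets, so nuclear content was not checked. Here, nucleus names the fraction as labelled, which was also rich in endoplasmic reticulum mRNAs. Arrays of the U2AF50 cytoplasm had a GAPDH 3' to 5' ratio, a sign of RNA integrity, of 2.36 to 3.63, and the other arrays 3.89 to 8.32. Their hybridisation controls, labelled RNA added to each hybridisation, were at 12.09 to 12.47 on the log2 scale, and those of the other arrays at 12.46 to 15.002.

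The first comparison asked in which fraction of control cells these mRNAs had the larger share. A member of each complex was lower in the nucleus: tsu by 3.24-fold, Cbp20 by 2.81-fold and Upf1 by 2.78-fold. None was higher. The 3 of 8 called lower stand against 25.2% of all probe sets tested, and 0 called higher against 16.9%, so the count is near that of the array and nothing is read from it about the set. The median log2 change of the members was -0.85, beside -0.27 over all probe sets. After normalisation, all nuclear values lay below all cytoplasmic values for 4 of 8 members, tsu, Cbp20, Upf1 and Upf3, against 32.0% of all probe sets.

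Of the exon junction genes, tsu encodes Y14, which forms the core of the complex as a pair with Mago. Its intensities were 3057.9, 3631.8 and 5176.4 in the control cytoplasm and 1314.9, 764.6 and 1339.1 in the control nucleus. Under U2AF50 interference they were 4590.9, 5034.4 and 5401.5 in the cytoplasm and 1003.3, 1333 and 1436.2 in the nucleus. Every cytoplasmic value of tsu lay above every nuclear one, with more than a doubling between the closest. The nuclear share of tsu was lower in the control (log2 change -1.70, SE 0.24, limma adjusted p = 1.45e-05) and under U2AF50 interference (-1.89, SE 0.24, adjusted p = 4.58e-06, 3.7-fold).

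The gene btz encodes Barentsz, the core subunit that binds the RNA together with the helicase eIF4AIII. Its intensities were 198.5, 624 and 756.6 in the control cytoplasm and 397.8, 738.5 and 611.9 in the control nucleus, groups that overlapped. In the samples labelled U2AF50 they were 1322.5, 789.4 and 1155.7 in the cytoplasm and 257.1, 788.4 and 65.6 in the nucleus. Here the nuclear values reached from the lowest signal of any member to just under the lowest cytoplasmic value. In the control, btz had a log2 change of 0.35 between nucleus and cytoplasm (SE 0.55, 95% interval -0.82 to 1.52, limma adjusted p = 0.654). Under U2AF50 interference it was lower in the nucleus by 3.51-fold (log2 change -1.81, SE 0.55, adjusted p = 0.0119). The mean of btz in the U2AF50 nucleus, 8.38 (log2), was below the filter level of 8.46. Without U2AF50 nucleus replicate 3, which had the value of 65.6, that change was -1.25 with an adjusted p of 0.0647.

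**Figure D1:**
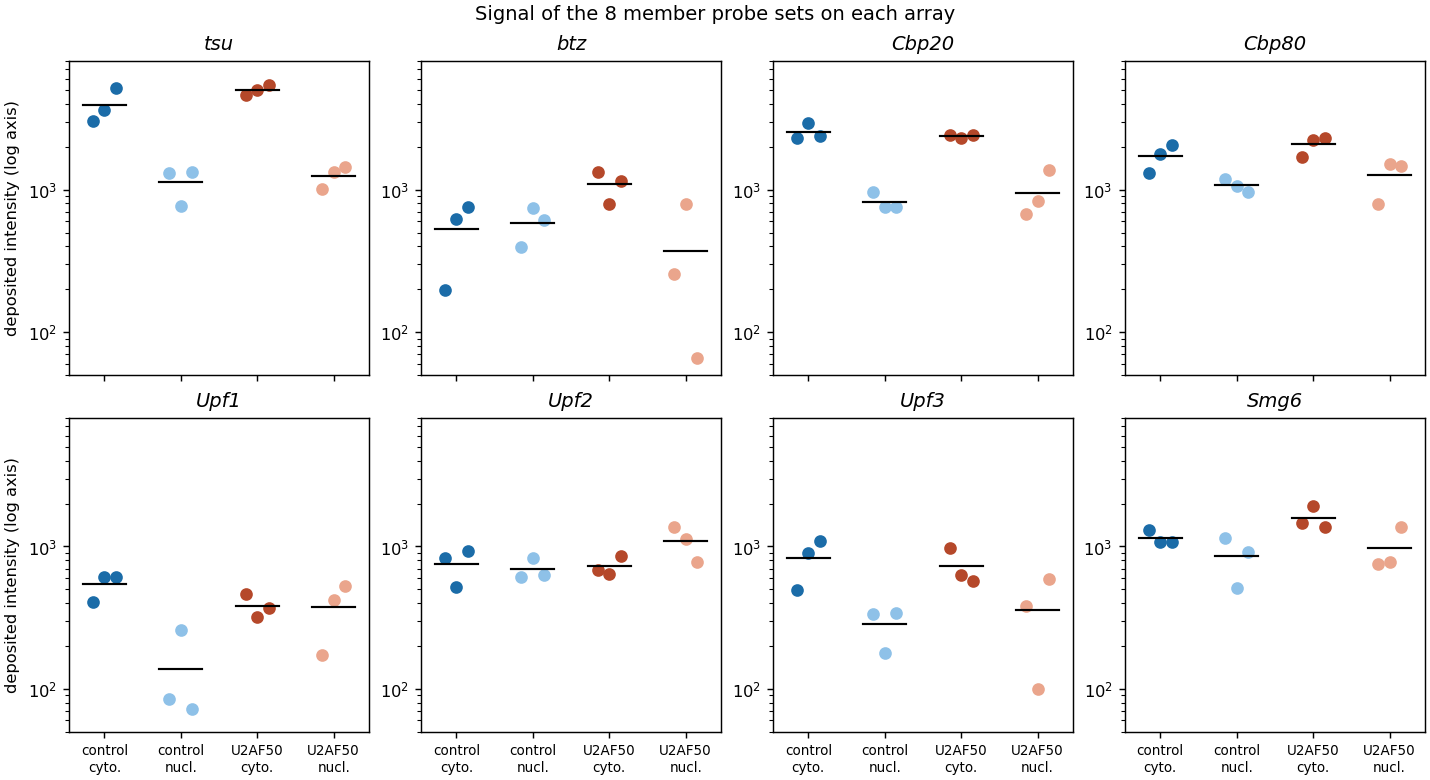
Deposited intensity (log axis) of the 8 member probe sets on each of the 12 arrays, by group; points are arrays and lines group means. For tsu and Cbp20 all cytoplasmic points lie above all nuclear points, while btz spreads from 65.6 to 788.4 in the U2AF50 nucleus.

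Of the cap-binding genes, Cbp20 encodes the subunit that holds the cap. Its intensities were 2323.3, 2960 and 2377.9 in the control cytoplasm and 967.2, 749.9 and 754.6 in the control nucleus. After U2AF50 interference its values were 2424.9, 2298.7 and 2417.9 in the cytoplasm and 669.5, 829.3 and 1364.7 in the nucleus. All cytoplasmic values were above all nuclear values, and the 3 of the U2AF50 cytoplasm were the most alike of any group of this gene. The nuclear share of Cbp20 was lower in the control (log2 change -1.49, SE 0.26, limma adjusted p = 1.65e-04) and under U2AF50 interference (-1.29, SE 0.26, adjusted p = 6.17e-04, 2.44-fold).

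Cbp80 encodes the larger partner, which steadies Cbp20 on the cap and contacts export and decay factors. Its intensities were 1301, 1787.4 and 2059.4 in the control cytoplasm and 1183.8, 1066.7 and 965.9 in the control nucleus. Under the U2AF50 label they were 1707.5, 2244.2 and 2297.3 in the cytoplasm and 790.5, 1509 and 1475.6 in the nucleus. All nuclear values of Cbp80 were below the cytoplasmic ones of the same treatment as deposited, though not in the control after normalisation. The log2 changes, -0.51 in the control (SE 0.27, 95% interval -1.09 to 0.07, limma adjusted p = 0.152) and -0.67 under U2AF50 interference (SE 0.27, -1.25 to -0.09, adjusted p = 0.0522), were not called. The change under U2AF50 interference was called in 10 of 25 alternatives, over which it ranged from -1.096 to -0.087.

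Among the decay factors, Upf1 encodes the RNA helicase at the centre of nonsense-mediated decay. Its intensities were 408.9, 614.9 and 609.3 in the control cytoplasm and 85.1, 258.9 and 71.9 in the control nucleus. Under U2AF50 interference they were 462, 320.5 and 368.5 in the cytoplasm and 173.5, 419 and 532 in the nucleus. The control groups did not overlap and the U2AF50 groups did. Upf1 was lower in the control nucleus (log2 change -1.48, SE 0.45, limma adjusted p = 0.0136) and at -0.45 under U2AF50 interference (SE 0.45, 95% interval -1.41 to 0.50, adjusted p = 0.431). It was the dimmest member by its mean over all arrays, and its control nuclear mean of 7.77 (log2) was below the filter level of 8.46. The control call was lost without control cytoplasm replicate 2 (adjusted p = 0.05005), control cytoplasm replicate 3 (0.0541) or control nucleus replicate 3 (0.0538), with log2 changes of -1.38, -1.34 and -1.30.

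Upf2 encodes the factor that bridges Upf1 and Upf3. Its intensities were 827.4, 522.4 and 926.8 in the control cytoplasm and 614.1, 833.4 and 626.2 in the control nucleus. In the samples labelled U2AF50 they were 682.6, 645.2 and 863.1 in the cytoplasm and 1365, 1128.7 and 773.8 in the nucleus. The fractions overlapped under both treatments. Upf2 was the only member with no negative estimate in either, at a log2 change of 0.01 in the control (SE 0.31, 95% interval -0.65 to 0.67, limma adjusted p = 0.986) and 0.41 under U2AF50 interference (SE 0.31, -0.25 to 1.07, adjusted p = 0.293).

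Upf3 encodes the factor that, in mammals, ties the decay machinery to the exon junction complex. Its intensities were 496.6, 902.1 and 1101.8 in the control cytoplasm and 337.3, 179 and 342.3 in the control nucleus. After U2AF50 interference its values were 976.2, 631.6 and 570.8 in the cytoplasm and 379.9, 100.6 and 587.9 in the nucleus. The control groups did not overlap, and under U2AF50 interference 1 nuclear value exceeded the lowest cytoplasmic value as deposited. The log2 change was much alike under both treatments and lay on either side of the threshold, at -1.19 in the control (SE 0.49, 95% interval -2.23 to -0.15, limma adjusted p = 0.0623) and -1.26 under U2AF50 interference (SE 0.49, adjusted p = 0.0435, 2.39-fold). The U2AF50 call held under 10 of 24 alternatives, and without U2AF50 nucleus replicate 2 the change was -0.72 (adjusted p = 0.211). The control change was called under 5 of 24, among them without control cytoplasm replicate 1 (-1.55, adjusted p = 0.0275). It was also called without U2AF50 nucleus replicate 2 (-1.20, adjusted p = 0.0242) or 3 (-1.19, adjusted p = 0.0407). Those arrays are not in the control comparison, but all groups share 1 estimate of spread.

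Smg6 encodes the endonuclease that cuts the targeted mRNA near the stop codon. Its intensities were 1305.1, 1081.5 and 1070.1 in the control cytoplasm and 1144.3, 510 and 912.7 in the control nucleus. Under the U2AF50 label they were 1457, 1930.2 and 1364.9 in the cytoplasm and 758.8, 783.2 and 1376.2 in the nucleus. Under both treatments 1 nuclear value reached into the cytoplasmic range. The log2 changes of -0.38 in the control (SE 0.33, 95% interval -1.08 to 0.32, limma adjusted p = 0.385) and -0.71 under U2AF50 interference (SE 0.33, -1.41 to -0.01, adjusted p = 0.0865) were not called. Without U2AF50 nucleus replicate 3, the latter was -1.01 and called (adjusted p = 0.0203).

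The same question in the samples labelled U2AF50 gave 4 of 8 members lower in the nucleus, namely tsu, btz, Cbp20 and Upf3, and 0 higher. Over all probe sets tested, 30.9% were called lower and 17.9% higher, and the members' count is again read as near that of the array. Both measured exon junction genes were among the 4, with 1 cap-binding and 1 decay gene. The median log2 change of the members was -0.98, beside -0.29 over all probe sets. After normalisation, all nuclear values lay below all cytoplasmic values for the 4 and for Cbp80, 5 of 8 against 37.0% of all probe sets. With the GAPDH ratio of each array as a covariate, 2 of 8 were called (btz -1.22, adjusted p = 0.253, and Upf3 -0.86, adjusted p = 0.383, were not), and with the signal of the hybridisation controls 1 of 8, tsu (against btz -1.52, adjusted p = 0.184, Cbp20 -0.83, adjusted p = 0.0859, and Upf3 -0.11, adjusted p = 0.918). With arrays centred on their medians instead of quantile normalised, 6 of 8 were called, Cbp80 (-1.096) and Smg6 (-1.06) besides the 4, while the median of all probe sets moved to -0.52.

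**Figure D2:**
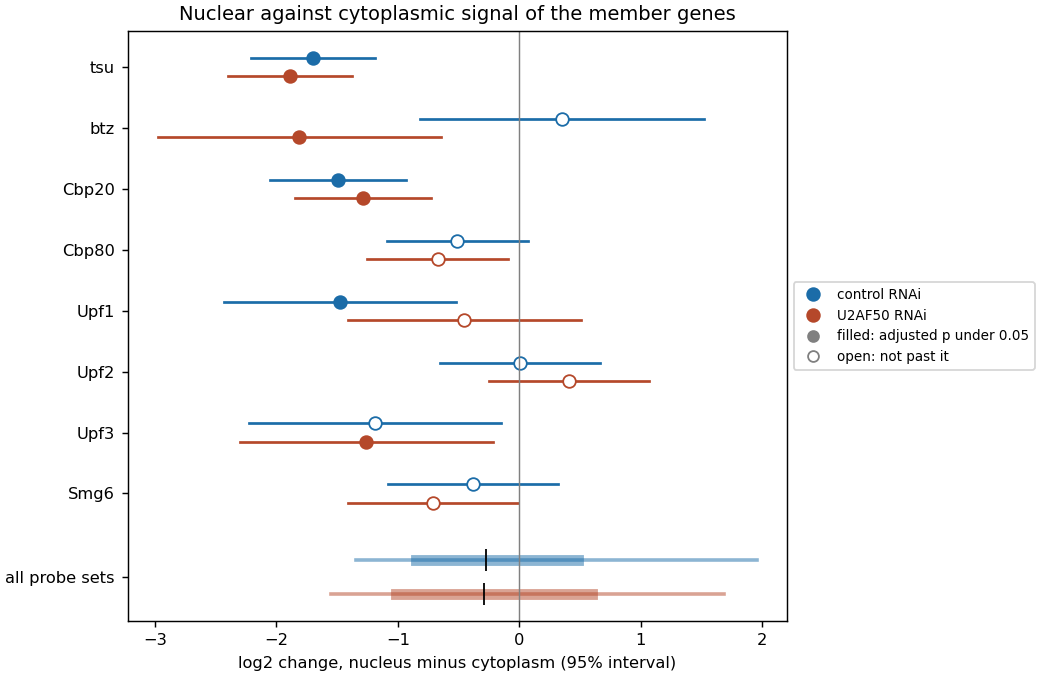
Log2 change between nucleus and cytoplasm with its 95% interval for each member, in samples labelled control (blue) and U2AF50 (red); filled points passed an adjusted p of 0.05, and below, the tick is the median, the box the 25th to 75th and the line the 10th to 90th percentile over all probe sets tested. The points of tsu and Cbp20 are filled under both treatments, btz and Upf3 under U2AF50 interference only, and Upf1 in the control only; the difference between treatments was tested separately.

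The next comparisons asked whether interference against U2AF50 changed the level of these mRNAs within a fraction. In the cytoplasm 0 of 8 members were called, against 2.57% of all probe sets, and 0 of 8 had an unadjusted p under 0.05, against 15.8%. The widest change was that of btz, whose 3 U2AF50 values all exceeded the 3 control values (log2 change 1.13, SE 0.55, 95% interval -0.04 to 2.30, limma adjusted p = 0.335). Without control cytoplasm replicate 1, which had the value of 198.5, it was 0.58. Smg6 had all U2AF50 values above the control values too (0.39, SE 0.33, interval -0.31 to 1.09, adjusted p = 0.612). Non-overlap upward, as in these 2 of 8, was found for 15.6% of all probe sets. After normalisation, Cbp20 had all U2AF50 values below the control values (-0.19, limma adjusted p = 0.766), while as deposited its groups overlapped. For the downward direction no share over all probe sets is at hand.

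The other cytoplasmic changes were smaller, and their intervals bound what the arrays could have missed. The core subunit tsu was at 0.28 (95% interval -0.23 to 0.79) and the cap-binding pair at -0.19 for Cbp20 (-0.75 to 0.36) and 0.22 for Cbp80 (-0.35 to 0.80). Of the decay factors, Upf1 was at -0.17 (-1.13 to 0.78), Upf2 at 0.09 (-0.57 to 0.75) and Upf3 at -0.00017 (-1.04 to 1.04). A doubling or halving, 1 on this scale, lies outside the intervals of tsu, Cbp20, Cbp80 and Upf2 and inside those of btz, Upf1, Upf3 and Smg6, the first 3 of which are the dimmest members. The lower GAPDH ratio and hybridisation controls of the U2AF50 cytoplasm arrays stand beside all of these changes.

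In the nucleus, where the U2af50 signal was not lower in the samples labelled U2AF50, 0 of 8 members were called as well, against 3.40% of all probe sets, and 0 of 8 had an unadjusted p under 0.05, against 16.4%. All 8 pairs of groups overlapped, but no share over all probe sets is at hand, so nothing is read from this count. The changes farthest from 0 were those of btz (log2 change -1.03, SE 0.55, 95% interval -2.20 to 0.14, limma adjusted p = 0.376) and Upf1 (0.85, SE 0.45, interval -0.10 to 1.81, adjusted p = 0.369). Without U2AF50 nucleus replicate 3 the change of btz was -0.46. Upf2 was at 0.50 (-0.16 to 1.15). The remaining 5 lay between -0.07 for Upf3 (-1.11 to 0.97) and 0.09 for tsu (-0.42 to 0.60), with Cbp20 at 0.0044 (-0.55 to 0.56), Cbp80 at 0.06 (-0.52 to 0.64) and Smg6 at 0.06 (-0.64 to 0.76).

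**Figure D3:**
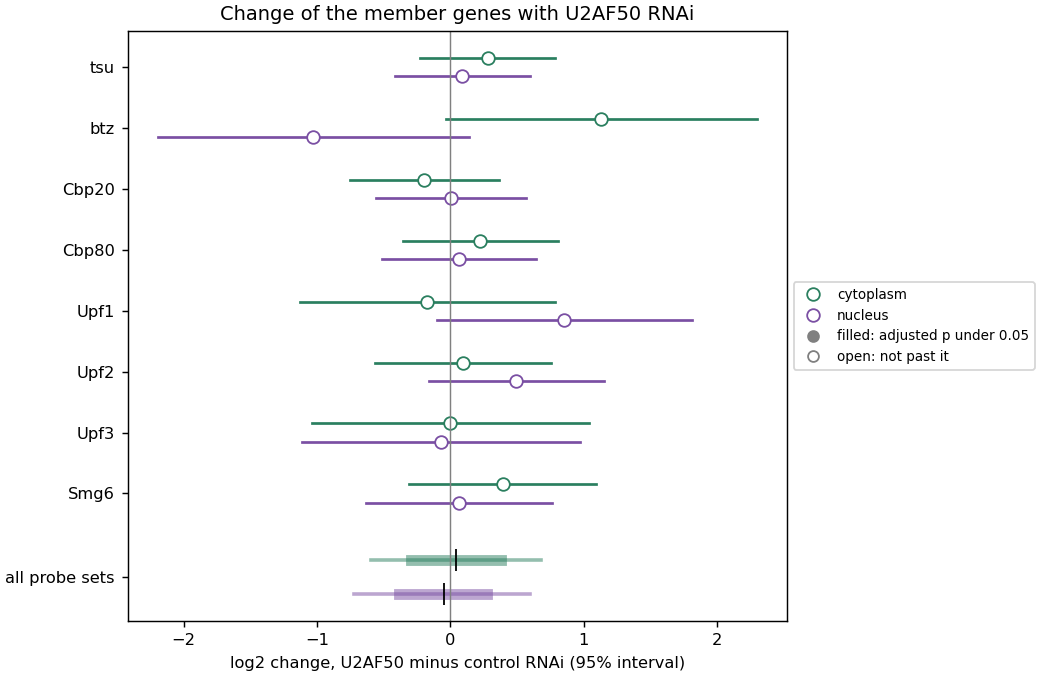
Log2 change with U2AF50 interference and its 95% interval for each member, in the cytoplasm (green) and the nucleus (purple), above the same summary over all probe sets tested. All points are open, and btz lies at 1.13 in the cytoplasm and -1.03 in the nucleus.

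Whether the ratio between the fractions itself differed between treatments was tested by the interaction. It was called for 0 of 8 members, against 0.167% of all probe sets (14 in all), and 1 of 8 had an unadjusted p under 0.05, against 13% of all. That member was btz, whose nuclear share was lower relative to the cytoplasm under U2AF50 interference (interaction -2.16 on the log2 scale, SE 0.78, 95% interval -3.81 to -0.51, unadjusted p = 0.0134, limma adjusted p = 0.264). Only 0.251% of all probe sets tested had a lower or equal interaction, and over the 23 alternatives that tested btz it ranged from -2.81 to -1.60 without being called. Upf1 was next at 1.03 (SE 0.64, interval -0.32 to 2.38, adjusted p = 0.504), so its call in control cells only is no sign of a difference between treatments. The others were Upf2 at 0.40 (-0.53 to 1.33), Smg6 at -0.33 (-1.32 to 0.66, adjusted p = 0.793), Cbp20 at 0.20 (-0.59 to 0.99), tsu at -0.19 (-0.91 to 0.53), Cbp80 at -0.16 (-0.98 to 0.66) and Upf3 at -0.07 (-1.54 to 1.40). Since each treatment's ratio shares arrays with the comparisons within a fraction, these are not separate observations.

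Across the 12 arrays the members did not move as 1 block. Of the 28 pairs of members, 14 had a Pearson correlation over 0.5 and 8 had one below 0. The highest was 0.92, between tsu and Cbp20, and the lowest was -0.53, between Cbp20 and Upf2. The 12 arrays come from both fractions, so their difference enters each value. Within the 6 cytoplasmic arrays the median correlation was 0.22 and within the 6 nuclear arrays -0.0025, beside 0.52 over all 12. Against the mean of the other 7 members, tsu had the highest correlation, 0.95, btz was at 0.27 and Upf2, the lowest and the only negative one, at -0.43.

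The 5 other genes whose profile was most like the mean of the members were 14-3-3zeta (Pearson r 0.985 over 12 arrays), eRF1 (0.981), Dbp73D (0.979), Snx3 (0.979) and Su(fu) (0.978), out of 7448 candidate probe sets. 14-3-3zeta is a phosphoserine-binding adaptor, eRF1 the translation termination factor, Dbp73D a DEAD-box RNA helicase, Snx3 a sorting nexin and Su(fu) a negative regulator of Hedgehog signalling. Each was lower in the nucleus under both treatments, between a log2 change of -0.87 for Snx3 in the control and -1.57 for Su(fu) under U2AF50 interference. The correlations within the 6 nuclear arrays ran from 0.687 for Snx3 to 0.945 for eRF1. They are a description of these arrays, with the fraction shared by all points.

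By RefSeq's Release 6 annotation, 4 of the 8 genes overlap another gene: tsu with Mys45A, btz with CROT, Cbp80 with Torsin, CG15473 and CG3009, and Upf3 with DNAlig1. The strand and place of the probes were not used here, so a shared signal could not be tested. CROT, a carnitine acyltransferase gene, was lower in the nucleus under U2AF50 interference, as btz was (log2 change -1.16, SE 0.33, limma adjusted p = 0.0082). In the control it was at -0.19, against 0.35 for btz, and between the treatments in the cytoplasm at 0.82 (adjusted p = 0.24), beside 1.13 for btz. DNAlig1, a DNA ligase gene, was at -0.68 in the control and lower in the nucleus under U2AF50 interference (-1.61, SE 0.33, adjusted p = 5.9e-04), beside -1.19 and -1.26 for Upf3. Torsin moved opposite to Cbp80, 10.8-fold higher in the control nucleus and 6.74-fold higher in the nuclear samples labelled U2AF50. Mys45A was at -1.04 and -0.55, neither called.

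The partners of these complexes were counted from lists of related genes. Among other exon junction genes, 4 of 5 tested were lower in the nucleus in the control and 4 of 5 under U2AF50 interference, with none higher, beside 25.2% and 30.9% of all probe sets called lower. CG7483, which RefSeq lists as eIF4AIII, the helicase that clamps the complex to RNA, was lower by a log2 change of -1.90 in the control (SE 0.21, limma adjusted p = 6.86e-07) and -1.36 under U2AF50 interference. Pym, which takes the complex apart on the ribosome, was at -1.16 and -1.31, and both were called, the control call not without control nucleus replicate 1 (adjusted p = 0.0639). RnpS1, a peripheral subunit, was at -0.82 in the control and -1.28 under U2AF50 interference. The CWC22 homologue ncm, which loads eIF4AIII, was at -0.85 and -0.62, and both genes were called under both treatments. The member that was not called, Acn, stood at 0.48 and -0.03.

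Of the 9 other cap-related genes 8 had a probe set and 3 of these were bright enough to test, 1 of 3 lower in the control and 2 of 3 under U2AF50 interference (25.2% and 30.9% of all probe sets). These were eIF4E1, the cytoplasmic cap-binding factor (log2 change -1.34, SE 0.15, adjusted p = 6.31e-07 in the control, and -1.24, called, under U2AF50 interference), and Ars2, a partner of the cap-binding complex (-0.99, SE 0.21, limma adjusted p = 7.74e-04 under U2AF50 interference). The call of Ars2 was lost in 2 of 25 alternatives (adjusted p up to 0.0733). The release factors eRF1 and eRF3, on whose stalled termination decay depends, were lower under both treatments. Their changes were -0.90 and -1.28 for eRF1 and -1.31 and -0.73 for eRF3. The second call of eRF3 was lost in 5 of 25 alternatives, where the change came as close to 0 as -0.41 and the limma adjusted p reached 0.392. Among these were the fits without U2AF50 cytoplasm replicate 2 (-0.63, adjusted p = 0.0718) or U2AF50 nucleus replicate 2 (-0.61, adjusted p = 0.0713).

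Of the 10 cytoplasmic mRNA decay genes tested, 5 were lower and 1 higher in the control nucleus, and 5 lower and 0 higher under U2AF50 interference. Over all probe sets 25.2% were lower and 16.9% higher in the control, and 30.9% and 17.9% under U2AF50 interference. LSm1, part of the ring that promotes decapping, was lower in the control (log2 change -1.26, SE 0.26, limma adjusted p = 6.33e-04), as were Pop2, a deadenylase (-1.18), and Ge-1, a decapping scaffold (-0.99). Under U2AF50 interference the lowest were me31B, a decapping helicase (-1.70, SE 0.19, adjusted p = 1.07e-06), Pop2 (-1.11) and Not3, a subunit of the deadenylase complex (-1.09). The calls of Pop2 and Not3 were each lost in 2 of 25 alternatives, with an adjusted p of up to 0.103 and 0.477. LSm1 (-0.99) and Ge-1 (-1.06) were called lower under U2AF50 interference too, and me31B (-0.94) in the control. The only gene called higher in the nucleus than in the cytoplasm was DCP2, the decapping enzyme, at 0.85 in the control (adjusted p = 0.0028). Under U2AF50 interference DCP2 was at -0.17, with an interaction of -1.02 that was not called (adjusted p = 0.169).

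Between the treatments, none of the exon junction, cap-related or release-factor genes tested (5, 3 and 2) was called in either fraction or in the interaction. Over all probe sets, 2.57% were called in the cytoplasm, 3.40% in the nucleus and 0.167% in the interaction. The absence of calls in such short lists is therefore not read as a lack of response. Of the cytoplasmic decay genes, 2 of 10 rose in the cytoplasm and 1 of 10 in the nucleus, beside 1.77% and 1.58% of all probe sets called higher. Pop2 rose by 1.09 in the cytoplasm (SE 0.26, limma adjusted p = 0.0376) and by 1.15 in the nucleus (SE 0.26, adjusted p = 0.023). Its second probe set, dimmer, was at 0.27 and -0.09 and not called, so the rise rests on 1 of its 2 probe sets. DCP2 rose by 0.86 in the cytoplasm (SE 0.21, adjusted p = 0.0373). The cytoplasmic calls held under 15 of 25 alternatives for Pop2 and 13 of 25 for DCP2, and both were lost with the GAPDH covariate (adjusted p = 0.486 for Pop2 and 0.151 for DCP2), with the hybridisation covariate (0.229 and 0.207) and without the intensity trend (0.149 and 0.116). Neither held without any 1 of the U2AF50 cytoplasm replicates (Pop2 0.118 to 0.146, DCP2 0.097 to 0.16, as adjusted p). Without control cytoplasm replicate 1 or 2 the adjusted p was 0.149 and 0.102 for Pop2, and 0.0700 and 0.136 for DCP2, which was also lost without control nucleus replicate 1 (0.0537) or 3 (0.0595). The nuclear call of Pop2 held under 20 of 25, but not without control nucleus replicate 3 (0.79, adjusted p = 0.0962) or U2AF50 nucleus replicate 2 (0.996, adjusted p = 0.0762).

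**Figure D4:**
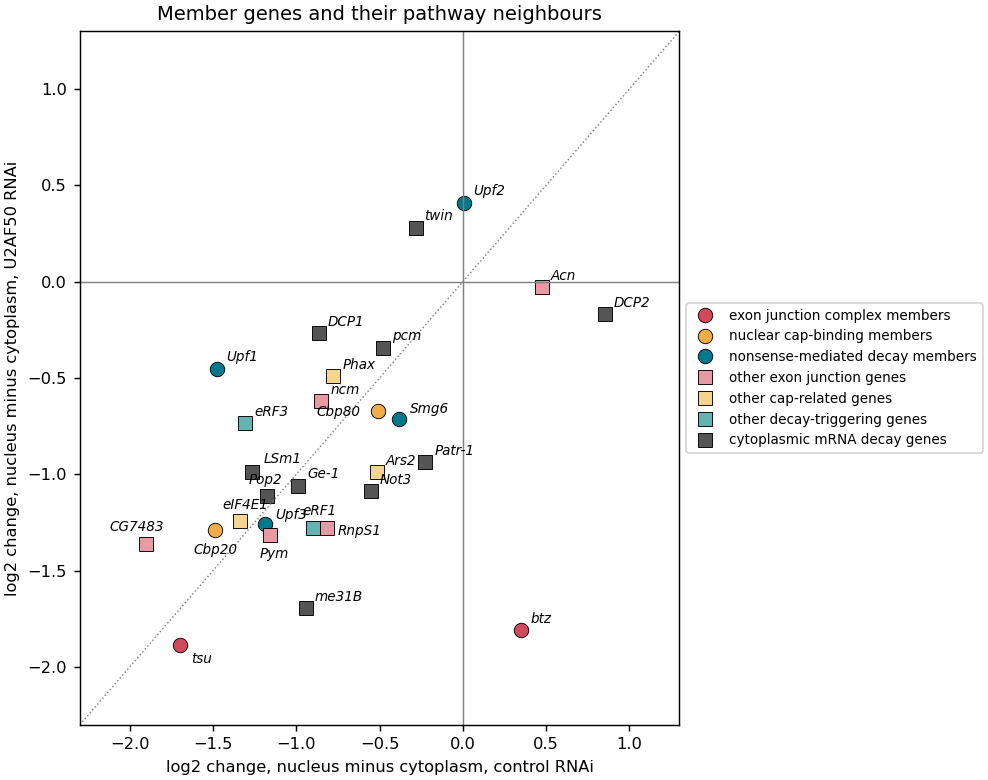
Log2 change between nucleus and cytoplasm in samples labelled control (horizontal) and U2AF50 (vertical) for the members (circles) and the genes of the related lists (squares), with a dotted line of equal change. Most genes lie below 0 on both axes, while btz (0.35 and -1.81), DCP2 (0.85 and -0.17) and Acn (0.48 and -0.03) stand to the right.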

How the data were processed

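The deposited values are intensities, 1 per probe set and array, which the authors had scaled: the mean of each column without its lowest and highest values was about equal on every array, as read from the values. The image software, background correction and probe summary are unknown here. The 44 control probe sets were dropped, leaving 13966. Intensities became log2(intensity + 94.7), 94.7 being the 20th percentile of all values, and were quantile normalised over 12 arrays. Probe sets with a mean above the 40th percentile were tested (8379). limma 3.58.1 in R 4.3.3 (lmFit, eBayes with an intensity trend, 8 residual and 8.95 prior degrees of freedom) fitted 4 group means, with Benjamini-Hochberg adjustment over all probe sets for each of 5 contrasts. The procedure was tested on simulated data. Between treatments, simulated log2 changes of 1 were recovered for 19.1% in the cytoplasm, 22.9% in the nucleus and 14.6% in the interaction. For changes of 3 these shares were 90.5%, 91.9% and 85%. Of the simulated calls, 1.27% to 6.67% were false, by contrast. The number of arrays limits the precision.

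Symbols came from the platform annotation (1 symbol for 12444 probe sets, several for 327, none for 1239), and 12394 were matched through the gene identifier to RefSeq. The files have no sequences, and none are shown. All members were named, with up to 3 called genes of largest change per related list and contrast, by the probe set of highest mean, and the 5 genes most like the members' mean. Other genes named beside them (overlapping neighbours, Acn, values given next to a named gene) were chosen after their values were seen. The members and lists were chosen with earlier results of these data known. Alternatives covered normalisation, pseudocount (16, 200), filter (none, 60th percentile), trend, 1 probe set per gene, replicate block, array quality covariates, only the groups compared, and each array left out.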

Additional observations from a re-analysis of the deposited data

How the results depend on the processing

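The number of members called was 2 to 4 of 8 between the fractions of control cells (3 as reported) and 0 in every alternative for both comparisons of treatments within a fraction and the interaction. In the samples labelled U2AF50 it was 4 as reported, 2 with each array's GAPDH ratio as a covariate, 1 with its hybridisation control signal, 6 with arrays centred on their medians and 3 to 5 with 1 array left out. All calls were lower in the nucleus. The fraction changes of tsu were called in all 25 alternatives under both treatments, and those of Cbp20 in 25 and 24. Some signs turned with the value beyond 1 standard error before or after the change of setting. With the GAPDH covariate this held for Upf1 between the fractions under U2AF50 interference (0.57). With the hybridisation covariate it held for tsu between treatments in the cytoplasm (-0.0933, against 0.28 as reported) and Upf3 in the interaction (0.90). With 1 array left out it held for Cbp20 (-0.31 to 0.23) and Upf3 (-0.52 to 0.48) between treatments in the nucleus. A further 52 sign changes, between -0.29 and 0.48, were under 1 standard error on both sides. The causes were not tested. The filter at the 60th percentile left 5 members. Replicate numbers gave no sign of pairing: deviations of same-numbered arrays correlated at -0.09 to 0.06 in 12 comparisons. In 3 of these 12 the array correlated best with its own number. Whether same-numbered samples were prepared together is not settled by this. With the replicate block, 3, 5, 0, 0 and 0 members were called in the 5 contrasts. Over all probe sets, calls ranged from 2957 to 3763 (3531 as reported) and 2669 to 4638 (4088) between the fractions, 31 to 378 (215) and 124 to 386 (285) between treatments, and 3 to 183 (14) in the interaction.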

Other observations

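Gadd45, Arc1 and Oda have been described as mRNAs that nonsense-mediated decay destroys in flies. In these cells 0 of 3 was called between the treatments in either fraction or in the interaction. Over all probe sets, 2.57% were called in the cytoplasm, 3.40% in the nucleus and 0.167% in the interaction. Nothing is read from the count about such targets. Gadd45, a stress-response gene, was at a log2 change of -0.07 in the cytoplasm (SE 0.20) and 0.21 in the nucleus (SE 0.20). Arc1, which encodes a capsid-forming protein, was at 0.17 and 0.89 (SE 0.56), and Oda, which encodes ornithine decarboxylase antizyme, at 0.19 and -0.46 (SE 0.18). Between the fractions, Arc1 was lower in the nucleus in the control (-2.19, SE 0.56, limma adjusted p = 0.00427) and under U2AF50 interference (-1.47, adjusted p = 0.0397, a call lost in 7 of 25 alternatives). Among these, the change was -1.24 without U2AF50 cytoplasm replicate 1, -0.97 without U2AF50 cytoplasm replicate 3 and -0.73 without U2AF50 nucleus replicate 3. Oda was lower in both as well (-1.08 and -1.73, SE 0.18). Gadd45 was not called, at -0.24 and 0.04. The 2 of 3 called lower under each treatment stand beside 25.2% of all probe sets in the control and 30.9% under U2AF50 interference.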
